A study of Mus musculus with 2 samples.

Results

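The RNAs described here were 4 small nucleolar RNAs (snoRNAs) that are encoded inside introns, namely Snord17, Snord15a, Snord15b and Snora23, and the 3 genes that carry them, namely Snx5, Rps3 and Ipo7. They were taken by gene symbol, in the pairs Snord17 with Snx5, Snord15a and Snord15b with Rps3, and Snora23 with Ipo7. The 7 symbols had 16 transcripts among the 48876 transcripts and 24117 gene symbols listed, with 1 transcript for each snoRNA and 12 for the hosts. The data came from enChIP-RNA-Seq, in which a tagged DNA-binding protein is pulled down from crosslinked, sonicated chromatin and the RNA that comes with it is sequenced. The cells were Ba/F3, a mouse hematopoietic line that the labels give as strain C3H, stably expressing either 3xFN-Tel-TAL, a FLAG-tagged TAL protein that recognizes telomere repeats, or 3xFNLDD, a FLAG-tagged LexA protein used as negative control. There was 1 library per protein, made from RNA after pull-down with an anti-FLAG antibody, and no replicate of either. The sample records give 60 ng of RNA for each library. The methods of the study give larger amounts, which differ between the proteins.

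Most mammalian snoRNAs are not transcribed from genes of their own. They lie in introns of other genes, and are released when the host transcript is spliced and the intron is trimmed by exonucleases, so that 1 primary transcript yields an mRNA that goes to the cytoplasm and a snoRNA that stays in the nucleus. C/D box snoRNAs assemble with fibrillarin and guide methylation of the ribose in other RNAs, mostly ribosomal RNA, whereas H/ACA box snoRNAs assemble with dyskerin and guide the conversion of uridine to pseudouridine. Comparing each snoRNA with its host therefore asks whether an excess in the 3xFN-Tel-TAL isolate was shared by the 2 products of the same gene.

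Sequences are shown for the 4 snoRNAs because the comparison turns on them. They were read from the NCBIM37 genome at the positions the GENCODE M1 annotation gives for the listed transcripts, and are written 5' to 3' as DNA. Capitals mark the C box letters TGATGA and the D box letters CTGA in the C/D box snoRNAs, and the ACA letters near the 3' end of the H/ACA box snoRNA.
Snord17 (chr2:144091715-144091952, reverse strand): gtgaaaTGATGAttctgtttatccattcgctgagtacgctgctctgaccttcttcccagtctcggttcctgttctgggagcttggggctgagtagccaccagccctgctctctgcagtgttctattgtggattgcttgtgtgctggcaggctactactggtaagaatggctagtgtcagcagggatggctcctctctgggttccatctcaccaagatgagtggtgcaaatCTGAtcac
Snord15a (chr7:106631295-106631442, reverse strand): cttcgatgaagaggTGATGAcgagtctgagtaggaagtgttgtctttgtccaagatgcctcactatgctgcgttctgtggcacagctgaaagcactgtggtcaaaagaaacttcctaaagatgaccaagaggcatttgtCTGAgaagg
Snord15b (chr7:106628073-106628217, reverse strand): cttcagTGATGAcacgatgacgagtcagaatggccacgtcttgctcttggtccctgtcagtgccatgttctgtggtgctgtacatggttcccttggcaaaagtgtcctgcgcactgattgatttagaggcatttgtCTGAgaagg
Snora23 (chr7:117189878-117190061, forward strand): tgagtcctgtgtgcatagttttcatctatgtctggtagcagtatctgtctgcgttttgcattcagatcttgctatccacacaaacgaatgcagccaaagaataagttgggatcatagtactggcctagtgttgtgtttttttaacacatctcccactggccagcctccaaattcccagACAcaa

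Snord17 has 238 nt, Snord15a 148 nt, Snord15b 145 nt and Snora23 184 nt. RefSeq on GRCm38.p6 gives the same lengths for Snord15a, Snord15b and Snora23 but 221 nt for Snord17, so the ends of Snord17 depend on the annotation. In Snord17 the C box letters stood at bases 7 to 12 and the D box letters at bases 231 to 234, with 4 bases after them. In Snord15a they stood at bases 15 to 20 and 140 to 143, and in Snord15b at bases 7 to 12 and 137 to 140. Only the strand of the RNA was searched, for TGATGA in the first 25 bases and CTGA in the last 20 bases, and 53 of the 365 listed snoRNAs of the annotation (14.5%) held both. The ACA letters of Snora23 stood at bases 179 to 181, which is 3 bases before the end, as they did in 138 of these 365 snoRNAs (37.8%).

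Snord15a and Snord15b carry related names and share a host, but their sequences were not near copies. A global alignment gave 68.1% identity, with 96 identical positions, 45 mismatches and 11 gap positions. The longest stretch they shared was the 21 bases at their 3' ends, agaggcatttgtctgagaagg, which include the D box. The 7 members were searched with BLAST against all listed transcripts of the annotation. Each host was searched by its protein-coding transcript with the most reads, and its other transcripts were not searched. The only match of at least 90% identity over at least 20% of a member outside its own symbol was that of Snord15b to an Rps3 transcript. No such match was found for Snord17, Snord15a, Snora23, Snx5 or Ipo7.

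Snord17 lies in an intron of 8352 bases of Snx5, which encodes a sorting nexin that acts in protein sorting at endosomes. That intron is the first of 12 in transcript ENSMUST00000028909, and Snord17 is 4160 bases from its upstream exon and 3954 bases from its downstream exon. Rps3 encodes a protein of the small ribosomal subunit. In its transcript ENSMUST00000032998, Snord15a is in intron 1 of 6, 84 bases before the next exon, and Snord15b is in intron 5, 92 bases before the next exon. Ipo7 encodes importin 7, a receptor for import into the nucleus, and Snora23 is in its intron 13 of 24, 112 bases after the upstream exon and 130 bases before the downstream exon. The 2 Rps3 snoRNAs and Snora23 thus stand near an exon, whereas Snord17 stands near the middle of a long intron.

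**Figure D1:**
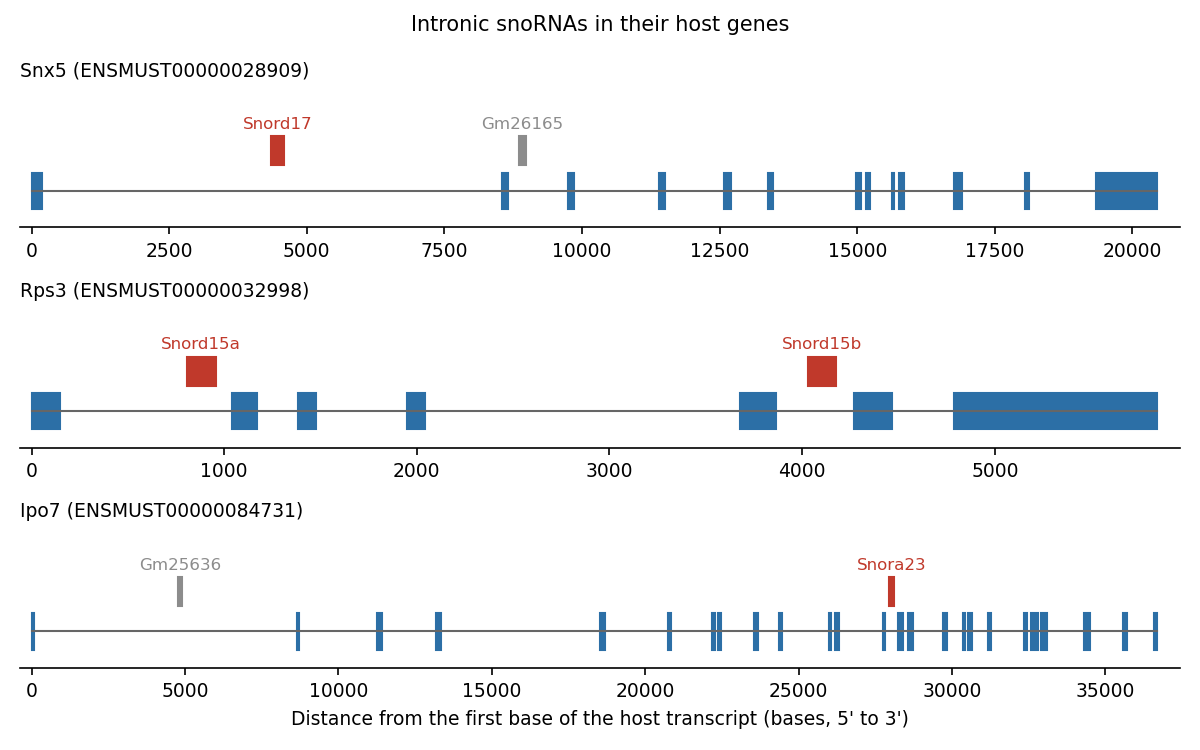
Maps of Snx5, Rps3 and Ipo7 drawn to scale for the protein-coding transcript with the most reads, with the distance from its first base in bases on the horizontal axis. Blue boxes are exons, red boxes the 4 snoRNAs described and grey boxes the other listed snoRNAs of the same strand inside the host, and Snord17 can be seen far from any exon.

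The 3xFNLDD library held 7206183 reads and the 3xFN-Tel-TAL library 9774844 reads, so 3 reads correspond to 0.416 and 0.307 RPM, which is the number of reads scaled to the library total. Hematopoietic markers had reads in both libraries, summing to 225 and 298 RPM (3xFNLDD first) over the 6 of 7 genes analysed (Spi1 was not analysed here). Markers of other cell types summed to 4.72 and 1.53 RPM over 4 of 6 genes (Alb and Epcam were not analysed here). Ratios are given as log2 of RPM in 3xFN-Tel-TAL over RPM in 3xFNLDD, without a pseudocount. Each has a 95% interval obtained by the exact Clopper-Pearson method from the split of the RNA's reads between the libraries and rescaled by their totals. PCR duplicates could not be recognized without molecular identifiers, and any such duplicates would make these intervals too narrow. With no replicate of either library, the intervals cover counting error only. They compare these 2 libraries and not the conditions, and there is no replicate check.

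All 4 snoRNAs were more abundant in the 3xFN-Tel-TAL library by an RPM ratio of more than 1.4, and none of their 4 intervals reached down to 1.4-fold. The study had listed Snord17, Snord15a and Snora23 as associated with telomeres from these same libraries. That they passed 1.4-fold is therefore not an independent result. Separately, the study reported human SNORD17 together with the telomere protein TRF2 by RNA fluorescence in situ hybridization in osteosarcoma cells. Not all of its foci were at telomeres. By the same RPM ratio Ipo7 alone of the 3 hosts was above 1.4-fold, and its lower bound was not. The share of all symbols with a lower bound above 1.4-fold is not given here, so how common such a call was cannot be judged. The methods of the study set 1.4 on the ratio of read counts, which is a lower bar here because the 3xFN-Tel-TAL library is the deeper one. By read counts all 4 snoRNAs and all 3 hosts passed it, with 1.70 for Snx5, 1.75 for Rps3 and 2.31 for Ipo7, as did 70.2% of the 12517 gene symbols with at least 20 reads. By RPM, which is used from here on, 41.1% of the symbols with at least 20 reads in the libraries together were above 1.4-fold and 11.5% were below 1/1.4, with a median log2 ratio of 0.37. A ratio above 1.4 was therefore common in these libraries, and Snx5 and Rps3 stood near the median of all symbols, with 46.9% and 50.7% of symbols below them. Scaling by the trimmed mean of M values (TMM) shifted every log2 ratio by -0.33, after which 22.1% of symbols were above 1.4-fold and 20.8% below 1/1.4. With TMM all 4 snoRNAs and none of the 3 hosts were above 1.4-fold.

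The 3xFNLDD library held 215 reads of Snord17 (29.8 RPM), and 1512 were found with 3xFN-Tel-TAL (155 RPM). Its fold was 5.18 (95% interval 4.49 to 6.01), which was the highest of the 7 members. The 7 transcripts of Snx5 together had 135 reads in the control (18.7 RPM) and 229 with 3xFN-Tel-TAL (23.4 RPM), so that its log2 ratio was 0.32 (95% interval 0.0095 to 0.64). The host therefore differed little between the libraries while its snoRNA differed several fold. With TMM scaling the log2 ratio of Snx5 was -0.0043 (95% interval -0.32 to 0.31), so its direction depends on the scaling.

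For Snord15a, 26 reads in the control (3.61 RPM) compared with 162 reads with 3xFN-Tel-TAL (16.6 RPM). Its fold was 4.59 (95% interval 3.02 to 7.24). For Snord15b the counts were 19 (2.64 RPM) and 76 (7.78 RPM), a fold of 2.95 (95% interval 1.77 to 5.16) and a log2 ratio of 1.56. Both were higher with 3xFN-Tel-TAL, from low counts in the control library. The 4 transcripts of Rps3 together gave 122 reads (16.9 RPM) in the control and 214 (21.9 RPM) with 3xFN-Tel-TAL, and the log2 ratio was 0.37 (95% interval 0.043 to 0.70). The value of Rps3 equals the median of all gene symbols at this precision. With TMM scaling it was 0.044 (95% interval -0.28 to 0.38).

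Snora23, the H/ACA box snoRNA among the 4, was counted 71 times in the control (9.85 RPM) and 244 times with 3xFN-Tel-TAL (24.96 RPM). Its fold was 2.53 (95% interval 1.94 to 3.35). Ipo7, with a single listed transcript, was counted 36 times (4.996 RPM) and 83 times (8.49 RPM), and its log2 ratio was 0.77 (95% interval 0.18 to 1.37). Ipo7 thus had the highest ratio of the hosts, from the fewest reads, and 75.6% of the 12517 symbols had a lower one. With TMM scaling its log2 ratio was 0.44 (95% interval -0.14 to 1.05).

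**Figure D2:**
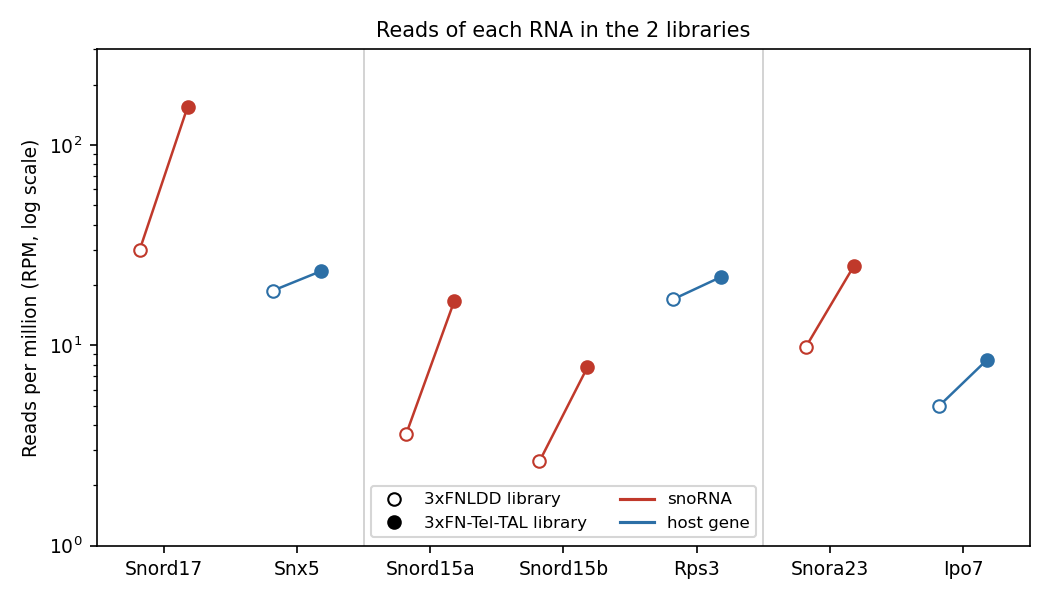
RPM on a log axis for each RNA, summed over its transcripts, in the 3xFNLDD library (open circles) and the 3xFN-Tel-TAL library (filled circles), with snoRNAs in red and hosts in blue. The lines of the snoRNAs are steeper than those of their hosts, from 29.8 to 155 RPM for Snord17 against 18.7 to 23.4 RPM for Snx5.

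**Figure D3:**
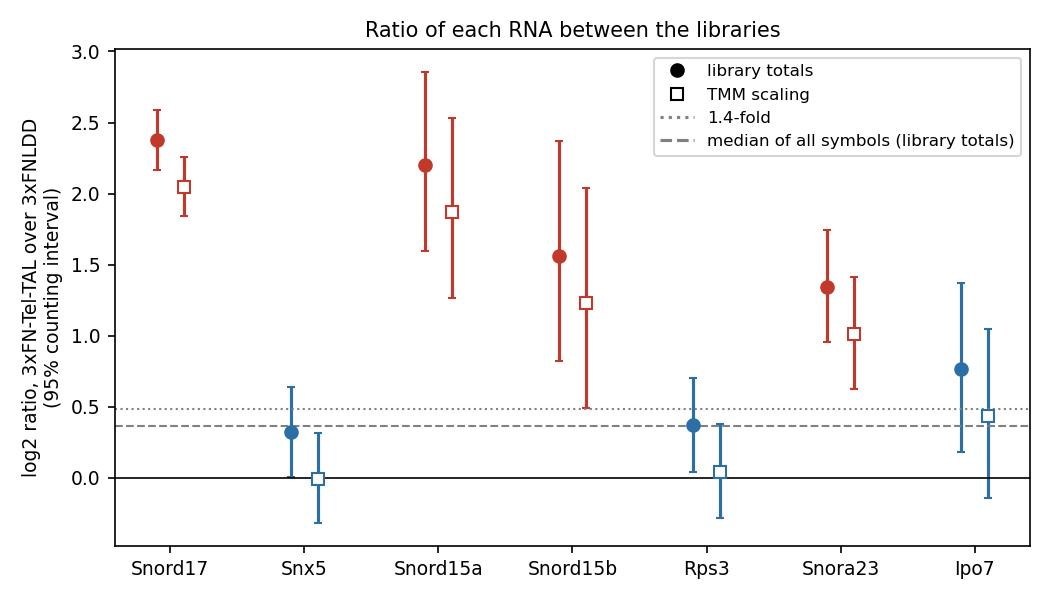
log2 ratio of 3xFN-Tel-TAL over 3xFNLDD for each RNA with its 95% counting interval, by library totals (circles) and with TMM scaling (squares). The dotted line marks 1.4-fold and the dashed line the median of all gene symbols by library totals, 0.37, and the intervals of the 4 snoRNAs lie above 1.4-fold in both scalings.

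The direct comparison of a snoRNA with its host does not depend on how the libraries are scaled, because the totals cancel. The difference of the log2 ratios was taken from the 2 by 2 table of reads of the snoRNA and the host in the libraries, with its exact conditional 95% interval. In all 4 pairs the snoRNA had the higher ratio, and in 3 of the 4 pairs the interval of the difference lay above 0. For Snord17 against Snx5 the difference was 2.05 (95% interval 1.67 to 2.43), or 4.15-fold. There were 1.59 reads of Snord17 per read of Snx5 in 3xFNLDD and 6.60 in 3xFN-Tel-TAL.

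For Snord15a against Rps3 the difference was 1.83 (95% interval 1.13 to 2.57), or 3.55-fold, and reads of Snord15a per read of Rps3 went from 0.213 to 0.757. For Snord15b against Rps3 it was 1.19 (95% interval 0.37 to 2.07), or 2.28-fold, with 0.156 and 0.355 reads of Snord15b per read of Rps3. Snord15a and Snord15b share the reads of Rps3, so these 2 differences are not independent of each other. For Snora23 against Ipo7 the difference was 0.58 (95% interval -0.15 to 1.29), or 1.49-fold, so it was not resolved from 0 at this depth. The interval allows up to 2.44-fold in favour of Snora23.

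The 4 snoRNAs were also compared among themselves, in 6 pairs. The log2 ratio of Snord17 was above that of Snora23 by 1.03 (95% interval 0.58 to 1.48), and that of Snord15a was above that of Snora23 by 0.86 (95% interval 0.12 to 1.63). The other 4 differences had intervals that held 0. Snord17 minus Snord15a was 0.17 (95% interval -0.52 to 0.82) and Snord15a minus Snord15b was 0.64 (95% interval -0.39 to 1.64). Snord17 minus Snord15b was 0.81 (95% interval -0.024 to 1.59), and Snord15b minus Snora23 was 0.22 (95% interval -0.64 to 1.12). No p-value is given for these 6 intervals, which were not adjusted for their number. Among the 3 hosts every interval held 0, and the widest difference was Snx5 minus Ipo7 with -0.44 (95% interval -1.13 to 0.23).

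Per length, Snord17 was the most abundant of the members in both libraries. Dividing RPM by the length of the transcript in kilobases gave 650 for Snord17 in 3xFN-Tel-TAL (exact Poisson 95% interval 618 to 684), then 136 for Snora23 (119 to 154), 112 for Snord15a (95.4 to 131) and 53.6 for Snord15b (42.2 to 67.1). The intervals of Snora23 and Snord15a overlap, and the others in this order do not. In 3xFNLDD the values were 125 for Snord17, 53.5 for Snora23, 24.4 for Snord15a and 18.2 for Snord15b, and the intervals of Snord15a (15.9 to 35.7) and Snord15b (10.9 to 28.4) overlap. The protein-coding transcripts with the most reads had 5.79 for Snx5, 6.70 for Rps3 and 2.72 for Ipo7 in 3xFN-Tel-TAL on the same scale. All 4 snoRNAs were thus above their hosts per length in both libraries. Such levels of short RNAs depend on how fragmentation and size selection treat their lengths, which was not tested.

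Within Snx5, some transcripts differed in their ratios. Transcripts of a gene can share exons, and how reads of shared exons were divided is not given in the sources used here. The protein-coding transcript ENSMUST00000028909 of Snx5 had 68 control reads against 137 with 3xFN-Tel-TAL, and its log2 ratio was 0.57 (95% interval 0.14 to 1.01). The processed transcripts ENSMUST00000153033 and ENSMUST00000138745 of Snx5 lay below 0. The first had 26 and 17 reads and a log2 ratio of -1.05 (95% interval -2.03 to -0.12), and the second had 6 and 4 reads and a log2 ratio of -1.02 (95% interval -3.29 to 1.05), which holds 0. The other processed transcripts of Snx5 lay above 0, with intervals that hold 0. Of these, ENSMUST00000155509 had 11 and 28 reads and 0.91 (95% interval -0.14 to 2.06). ENSMUST00000124389 had 18 and 30 reads and 0.30 (95% interval -0.59 to 1.23). No exon of a listed Snx5 transcript overlaps Snord17. Against ENSMUST00000028909 alone, the difference of Snord17 was 1.80 (95% interval 1.31 to 2.28), a little below that against all Snx5 reads.

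For Rps3, the protein-coding transcript ENSMUST00000032998 was counted 65 and 125 times, which gave a log2 ratio of 0.50 (95% interval 0.060 to 0.96). The retained intron transcript ENSMUST00000128725 was counted 54 and 84 times, which gave a log2 ratio of 0.20 (95% interval -0.31 to 0.72). An exon of this transcript contains the whole of Snord15b at 100% identity, so reads of Snord15b could have been counted there and the reverse. Snord15a overlaps no exon of a listed Rps3 transcript. Without ENSMUST00000128725, the difference of Snord15b against Rps3 was 1.07 (95% interval 0.18 to 1.99), and its interval still lay above 0. When the reads of Snord15a and Snord15b were summed, their difference to Rps3 was 1.59 (95% interval 1.01 to 2.19).

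**Figure D4:**
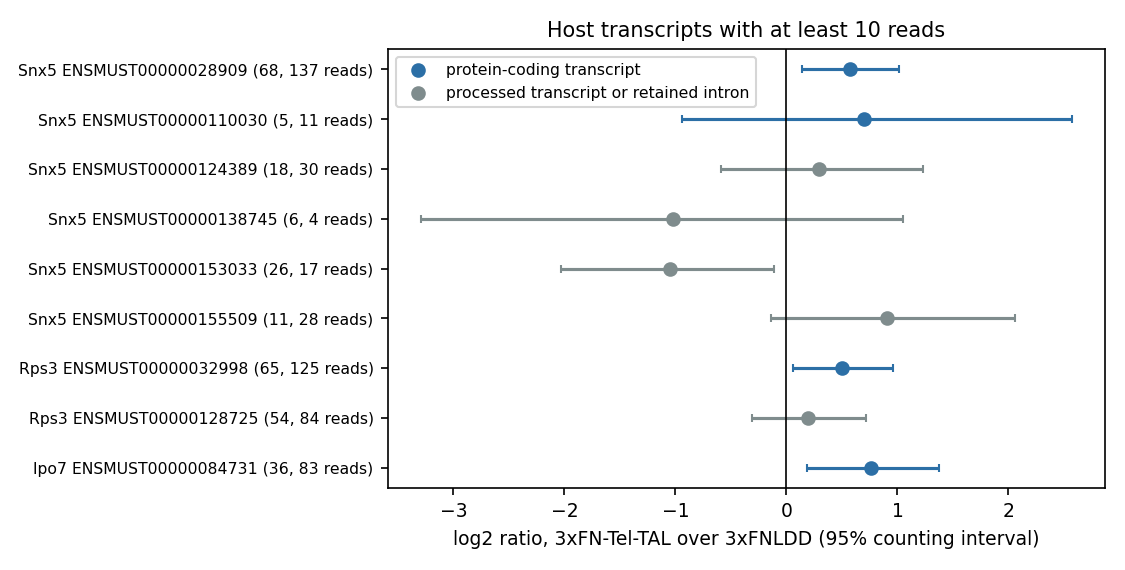
log2 ratio of 3xFN-Tel-TAL over 3xFNLDD with its 95% counting interval for each host transcript with at least 10 reads in the libraries together, with the reads in 3xFNLDD and 3xFN-Tel-TAL in brackets. Protein-coding transcripts (blue) lie between 0.50 and 0.77, and the Snx5 processed transcripts ENSMUST00000153033 (-1.05) and ENSMUST00000138745 (-1.02, with an interval that holds 0) lie below 0. The Snx5 processed transcripts ENSMUST00000155509 (0.91) and ENSMUST00000124389 (0.30) lie above 0, with intervals that hold 0.

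The hosts carry other listed snoRNAs, which allows a comparison inside a gene. Snx5 also holds Gm26165, annotated as the H/ACA box snoRNA SNORA70, a 138-nt RNA at chr2:144087325-144087462 on the same strand. Its counts were 23 in the control (3.19 RPM) and 31 with 3xFN-Tel-TAL (3.17 RPM), so that the log2 ratio was -0.0092 (95% interval -0.83 to 0.84). Snord17 exceeded it by 2.38 (95% interval 1.51 to 3.24), so the excess of Snord17 was not shared by the other listed snoRNA of Snx5. Gm26165 is 90.6% identical over its whole length to Snora70, and to a retained intron transcript of Rpl10 on chromosome X, so reads may have been split with these. Ipo7 also holds Gm25636, annotated as SNORA13, which had 2 and 10 reads, too few for comparison with Snora23. Mgme1, on the opposite strand, overlaps the upstream end of Snx5. It had 57 and 90 reads, and whether the counting used the strand is not given in the sources used here, so reads of this overlap cannot be told apart.

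Of the 365 listed snoRNAs of the annotation, 204 lie within a single protein-coding gene of the same strand, the 4 members included. Apart from the members, 48 of these pairs, in 38 hosts, had at least 20 reads in the libraries together for both the snoRNA and the host. In 79.2% of these 48 pairs the snoRNA had a higher ratio than its host, and in 37.5% the lower bound of the difference was above 0. No upper bound was below 0 in any of the 48. The median log2 ratio was 0.93 for the snoRNAs and 0.35 for the hosts of these pairs, and the median difference was 0.62. The minimum was set on the summed reads, so snoRNAs with few 3xFNLDD reads passed it through their 3xFN-Tel-TAL reads. This can favour differences above 0. With at least 1 read in each library instead, the snoRNA was higher in 59.8% of 117 pairs, with a median difference of 0.24. With at least 50 reads it was higher in 83.3% of 24 pairs. The 4 pairs described had 4 of 4 above 0 and 3 of 4 with the lower bound above 0. They went the way most pairs of this class went, by a share that depends on the minimum.

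Within this class Snord17 and Snord15a were in the upper range, since 6 of the 48 other pairs had a larger difference than either. The intervals of all 6 hold the value of Snord17, so these places are not resolved. Some of the 6 rest on 2, 3 or 4 reads of the snoRNA in 3xFNLDD, and others share the host Atg16l1. For Snord15b the number was 13 and for Snora23 it was 24, so Snora23 against Ipo7 was in the middle of the class. As the study had listed Snord17, Snord15a and Snora23 from these same libraries, their places are not independent of that choice. Snord15b also passed the study's threshold by read counts, and some snoRNAs of the other pairs, such as Scarna6, were listed by the study too. Among the 3 highest differences were Gm23245, annotated as SNORA22, against Cct6a (3.20, 95% interval 0.98 to 6.41) and Scarna6 against Atg16l1 (2.49, 95% interval 1.97 to 3.04). The first rests on 2 reads of Gm23245 in 3xFNLDD, and both intervals hold the value of Snord17. The 3 lowest were Gm24494, annotated as SNORD45, against Rabggtb (-1.08, 95% interval -2.58 to 0.42), Gm24233, annotated as SNORA26, against Ctage5 (-0.72, 95% interval -2.08 to 0.67) and Snora33 against Rps12 (-0.45, 95% interval -1.54 to 0.62). Rps12, like Rps3, encodes a protein of the small ribosomal subunit, and the intervals of these 3 pairs all hold 0.

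**Figure D5:**
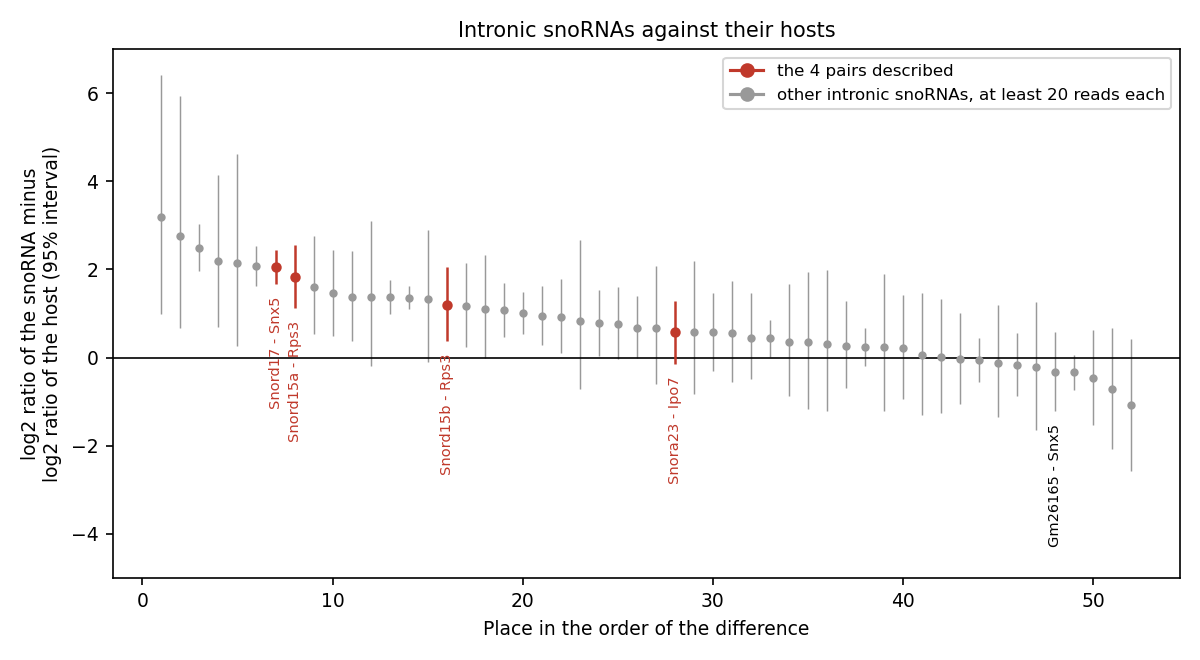
log2 ratio of each intronic snoRNA minus that of its host with the exact 95% interval, in the order of the difference, for the 4 pairs described (red) and 48 other pairs (grey). Snord17 and Snord15a stand at 2.05 and 1.83 behind 6 other pairs, whose intervals all hold the value of Snord17. Snora23 stands at 0.58 near the middle, and Gm26165 against Snx5 at -0.33.

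With 2 libraries the pattern of an RNA is a single ratio. In the order of the log2 ratio among the 3065 gene symbols with at least 200 reads in the libraries together, Snord17 stood at place 3. Chd7 (4.09), a chromatin remodeler, and Scarna6 (2.52), a small Cajal body-specific RNA, stood above it. Zwint (2.33), a kinetochore protein gene, Xkrx (2.33) and Grb2 (2.28), an adaptor of receptor signalling, followed it. The intervals of Scarna6, Zwint, Xkrx and Grb2 overlap that of Snord17, and that of Chd7 does not. Among the 12517 symbols with at least 20 reads Snord17 stood at place 90, with 99.3% of symbols below it. The share of these symbols below was 98.9% for Snord15a, 96.0% for Snord15b and 93.1% for Snora23.

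The genes of the proteins that bind and assemble snoRNAs were above 1.4-fold about as often as all symbols. All 15 such genes had at least 20 reads in the libraries together. Of them, 6 were above 1.4-fold, near the share of 41.1% over all symbols. None was below 1/1.4, beside 11.5% over all symbols, a share at which few of 15 genes would be. Their median log2 ratio was 0.15, beside 0.37 over all symbols, and this difference was not tested. Of the C/D box core proteins, Fbl, which encodes the methyltransferase fibrillarin, was counted 15 and 22 times, with a log2 ratio of 0.11 (95% interval -0.90 to 1.16). Nop56 had 0.29 (95% interval 0.041 to 0.53), Nop58 had 0.98 (95% interval 0.38 to 1.60) and Nhp2l1 had -0.37 (95% interval -0.90 to 0.15). Of the H/ACA box core proteins, Dkc1, which encodes the pseudouridine synthase dyskerin, was counted 102 and 196 times, with a log2 ratio of 0.50 (95% interval 0.15 to 0.86). Gar1 had -0.28 (95% interval -1.10 to 0.54), Nhp2 had 0.13 (95% interval -0.56 to 0.84) and Nop10 had 0.98 (95% interval -0.45 to 2.62) from 22 reads in all. Among the 7 assembly factors the ratios ran from -0.44 for Ruvbl1 to 0.84 for Nufip1.

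These ratios are of RNA recovered with the tagged proteins. No RNA from before the pull-down was analysed here, so a higher level of a snoRNA in the 3xFN-Tel-TAL cells and a higher recovery of it with chromatin cannot be told apart.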

How the data were processed

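RNA that came down with 3xFN-Tel-TAL or 3xFNLDD was sequenced in 1 library each. The authors deposited a read count per Ensembl transcript, without normalization, and RPM, in which counts are divided by the library total. RPM was checked by recomputing it from the counts, with differences of at most 4.8e-05. The submitters' processing notes name cutadapt and GRCm38 (mm10). The aligner, the annotation release and the handling of multi-mapping reads are not given in the sources used here.

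Files were joined on Ensembl ID, and counts were summed over the transcripts of a gene symbol. The members and gene lists were chosen with earlier results of these data known. Named genes were the 7 members, 15 snoRNP genes, the 3 highest and 3 lowest other pairs, and the 3 symbols on either side of Snord17 (above it there were 2), and Gm26165, Gm25636 and Mgme1 were named by position after the data were seen. One of the 3 highest other pairs is not reported here. Log2 ratios and exact 95% intervals were computed in Python 3.11.15 with scipy 1.17.1, and TMM factors with edgeR 4.0.16 on symbols with at least 10 reads. Symbols and other pairs needed at least 20 reads in the libraries together. Both intervals were tested on simulated independent Poisson counts, which is what the intervals themselves assume. That test does not cover duplicates or variation between replicates. Positions and sequences came from GENCODE M1 on NCBIM37, matched by transcript ID (45887 of 48876 transcripts). The files hold no positions, and no GRCm38 position was converted. Copies were sought with BLAST 2.17.0+.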

Additional observations from a re-analysis of the deposited data

How the results depend on the processing

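No paired analysis was possible because each group has 1 library, which also means that none could be left out. Of 69 alternative values, 54 stayed within the counting interval of the reported value, or within 1.5 times a reported count. Some alternatives could not change the value. These were the choices among transcripts for the snoRNAs and Ipo7, which have a single listed transcript each. Leaving out host transcripts with exons over the snoRNA likewise changed nothing for Snord17, Snord15a and Snora23. The 54 of 69 thus includes values that were the same by construction. The 4 differences between snoRNA and host kept their sign and stayed within their interval under every alternative tried. With TMM scaling and with totals that leave out the 11 transcripts above 1% of a library, the log2 ratio of Snord17 was 2.05 and 2.06 (2.37 by library totals), and that of Snx5 was -0.0043 and 0.0066 (0.32). By construction these scalings shift every RNA alike, by -0.33 and -0.32.

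Among gene symbols with at least 20 reads, 5148 were above 1.4-fold and 1435 below 1/1.4 by library totals, 2771 and 2602 with TMM, and 2834 and 2553 with the reduced totals. By the ratio of read counts without scaling, also chosen after seeing the data, they were 8791 and 641. A minimum of 100 reads left 5933 symbols, of which 2539 and 346 passed. Of the other intronic pairs, 38 of 48 had the higher ratio in the snoRNA, compared with 70 of 117 with at least 1 read in each library, 20 of 24 with at least 50 reads, and 10 of 12 with a Snora, Snord or Scarna symbol, a choice made after seeing the data. These sets differ in the number of pairs, and a minimum on summed reads admits snoRNAs with few 3xFNLDD reads through their 3xFN-Tel-TAL reads. Counts in 3xFNLDD were low for Snord15a (26 reads), Snord15b (19) and Ipo7 (36).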
